A study of Arabidopsis thaliana with 9 samples.

Results

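Pol V, a nuclear RNA polymerase found in plants, makes long non-coding RNAs from regions that are silenced by RNA-directed DNA methylation. In this pathway ARGONAUTE proteins loaded with small interfering RNAs, among them AGO4, are thought to pair with RNA that is still attached to Pol V, and the complex brings a DNA methyltransferase to the locus. NRPE1 is the largest subunit of Pol V, so that a plant without it makes no Pol V RNA. The transcripts described here are the long ones: those of the list of Pol V-associated transcripts that span 1400 bp or more and had at most 3 reads in each of the libraries from the mutant that lacks Pol V. They numbered 298 of 4502 listed transcripts. The members were chosen by these measured values, so their length and their reads in *nrpe1* against Col-0 are given as a description and were not tested. The comparison was with the 3960 listed transcripts under 1400 bp that met the same limit on *nrpe1* reads, called the shorter transcripts below, and with the 1714 of them of 700 bp or more, written as 700 to 1400 bp. From the lengths of sequenced fragments, the study infers that longer listed transcripts are regions of Pol V activity holding several shorter RNAs. The length of a listed transcript is thus that of a region and not of a continuous RNA.

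RNA was immunoprecipitated from the aerial part of *Arabidopsis thaliana* seedlings about 2.5 weeks old, grown on soil and fixed with formaldehyde. The Pol V RIP-seq used an antibody against NRPE1 in *nrpe1* (the *nrpd1b-11* allele) and in Col-0 wild type, with 2 repeats of each genotype. The AGO4 RIP-seq used an antibody against AGO4 in *ago4* (the *ago4-1* allele, crossed into Col-0) and in Col-0 wild type, with 1 library of each genotype, so AGO4 values have no replicate. All plants are of the Col-0 ecotype, and whole aerial parts mix many cell types, in which fewer cells and less RNA per cell cannot be told apart. Reads on all listed transcripts numbered 3049 and 1980 in *nrpe1* against 251106 and 189141 in Col-0, and 6245 in *ago4* against 118313 in Col-0 for the AGO4 list. The total depth of the libraries is unknown here, so reads are compared as deposited.

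A few stretches of sequence show what kind of DNA the long transcripts cover. They are from RefSeq's TAIR10.1 assembly, are written 5′ to 3′ on the strand of the transcript, and number 200 bases each. The first pair are the starts of the member with the most reads, PVTrans3958 (chr5:12966522-12966721, minus strand), and of the longest member, PVTrans3960 (chr5:12974499-12974698, minus strand), which lie in the same gap between protein-coding genes. Capitals mark CG sites, a kind of site where methylation can be copied on both strands.
PVTrans3958: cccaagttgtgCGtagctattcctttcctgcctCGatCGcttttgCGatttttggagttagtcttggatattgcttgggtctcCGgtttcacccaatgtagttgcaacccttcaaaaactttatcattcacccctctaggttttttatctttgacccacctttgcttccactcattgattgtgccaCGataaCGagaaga
PVTrans3960: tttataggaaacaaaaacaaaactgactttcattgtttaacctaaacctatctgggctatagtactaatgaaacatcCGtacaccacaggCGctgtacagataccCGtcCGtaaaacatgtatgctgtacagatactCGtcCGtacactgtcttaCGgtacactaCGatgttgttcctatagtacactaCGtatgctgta

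The next pair are the starts of the first and second repeat unit of PVTrans3064 (chr4:3056569-3056768 and chr4:3056071-3056270, minus strand), shown because this transcript is made of 4 whole copies of a unit of 498 bp in a row. Capitals mark the bases that differ between the units. All 11 differences over the 498 bp of the second unit fall in the 200 bases shown.
PVTrans3064 unit 1: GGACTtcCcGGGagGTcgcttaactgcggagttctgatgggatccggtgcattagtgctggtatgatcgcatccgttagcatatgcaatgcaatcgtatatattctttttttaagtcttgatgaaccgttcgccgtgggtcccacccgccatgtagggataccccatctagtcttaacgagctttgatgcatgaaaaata
PVTrans3064 unit 2: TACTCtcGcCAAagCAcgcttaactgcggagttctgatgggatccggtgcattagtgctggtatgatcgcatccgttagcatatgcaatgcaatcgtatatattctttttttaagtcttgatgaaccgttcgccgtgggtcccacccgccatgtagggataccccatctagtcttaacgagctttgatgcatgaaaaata

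The last pair show where 2 long transcripts of opposite strands begin to share the same DNA. The windows hold 100 bases on either side of the start of the plus-strand transcript, PVTrans3596 over PVTrans3595 (chr5:2441319-2441518, plus strand) and PVTrans3926 over PVTrans3925 (chr5:10794436-10794635, plus strand). Capitals mark bases that lie inside both transcripts.
PVTrans3596 on PVTrans3595: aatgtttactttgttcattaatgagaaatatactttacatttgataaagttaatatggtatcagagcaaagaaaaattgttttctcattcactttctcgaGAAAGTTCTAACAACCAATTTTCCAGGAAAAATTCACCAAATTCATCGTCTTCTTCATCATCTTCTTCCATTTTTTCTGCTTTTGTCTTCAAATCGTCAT
PVTrans3926 on PVTrans3925: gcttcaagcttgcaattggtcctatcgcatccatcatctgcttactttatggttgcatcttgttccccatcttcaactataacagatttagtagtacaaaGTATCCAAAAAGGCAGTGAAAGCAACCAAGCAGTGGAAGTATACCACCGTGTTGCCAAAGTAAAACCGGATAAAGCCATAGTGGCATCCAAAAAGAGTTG

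The long transcripts had a median length of 1643.5 bp, with a middle 50% of 1500 to 1956 bp and a maximum of 4340 bp. The shorter transcripts had a median of 642 bp. Most long transcripts were only moderately long: 233 (78.2%) spanned 1400 to 2000 bp, 59 (19.8%) 2000 to 3000 bp and 6 (2.01%) 3000 bp or more. The long transcripts made up 14.9% of all listed bases and took 11.7% of the listed Col-0 reads in each repeat. Their lowest, median and highest counts were 0, 0 and 3 reads in each *nrpe1* repeat, against 12, 84 and 542 reads in Col-0 repeat 1 and 6, 60.5 and 317 reads in Col-0 repeat 2. No read at all was found in *nrpe1* repeat 1 for 291 members and in *nrpe1* repeat 2 for 237 members. With *nrpe1* counted as at least 3 reads, Col-0 was 8-fold higher or more in both repeats for 276 members (92.6%), against 56.4% of the whole list. This follows from the limits on length and *nrpe1* reads and from the higher read number of longer transcripts, and nothing is read from it.

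At the length limit, the shortest members were PVTrans2356 with 1401 bp, PVTrans1917 with 1402 bp and PVTrans932 with 1403 bp. Just under it were PVTrans604 with 1398 bp and PVTrans850 and PVTrans3538 with 1395 bp. PVTrans604 lies 508 bp from *VFB1*, a gene for an F-box protein, and had no read in either *nrpe1* library against 72 and 45 reads in Col-0. PVTrans2356 had no *nrpe1* read against 113 and 63 reads in Col-0. The limit on *nrpe1* reads divided the 393 transcripts of 1400 bp or more into the 298 members and 95 others. The highest count in an *nrpe1* library was 0 for 234 members, 1 for 42, 2 for 17 and 3 for 5. Another 8 transcripts just missed the limit with 4 reads. Of these, PVTrans4397 on chromosome 5 had 0 and 4 reads in *nrpe1* against 819 and 866 reads in Col-0, more than any member. PVTrans3257 on chromosome 4 had 4 and 0 reads in *nrpe1* against 51 and 37 reads in Col-0. The limit can therefore leave out long transcripts with very high counts in Col-0.

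More reads fell on the long transcripts, but not per base. The median member had 4.08 Col-0 reads per 100 bp (mean of both repeats), against 5.80 in the shorter transcripts and 4.26 in those of 700 to 1400 bp. By repeat, the members' median was 4.92 reads per 100 bp in repeat 1 and 3.45 in repeat 2, so the gap to the transcripts of 700 to 1400 bp is smaller than that between repeats. Across the list with at most 3 *nrpe1* reads, the median density was 10.1 reads per 100 bp below 400 bp, 6.13 from 400 to 700 bp, 4.39 from 700 to 1000 bp and 4.09 from 1000 to 1400 bp (each class without its upper limit). It was 4.07 from 1400 to 2000 bp and 4.15 from 2000 bp. The lower density of the long transcripts therefore comes from the transcripts under 1000 bp having higher values, and no further decline was seen among the members (Spearman's rho of length and density 0.08 over 298 transcripts of the same libraries). A transcript entered the list only with a minimum number of reads, which short transcripts reach at a high density, and its share in the relation was not tested. Total reads were higher in longer members, with a rho of 0.48 between length and reads.

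**Figure D1:**
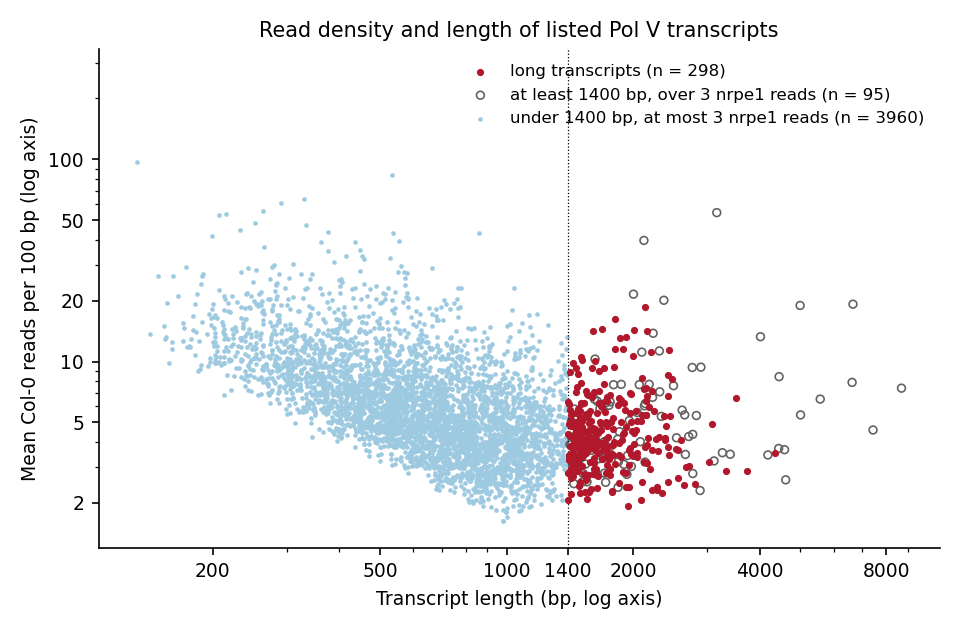
Mean Col-0 reads per 100 bp against transcript length, both on log axes, for the 298 long transcripts (red), the 95 of 1400 bp or more with over 3 *nrpe1* reads (open circles) and the 3960 shorter ones (light blue); each point is a transcript. Density fell with length up to about 1000 bp, and the members form a band around their median of 4.08 reads per 100 bp.

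The member with the most reads was also the densest. PVTrans3958, on the minus strand of chromosome 5 from 12964589 to 12966721, had 0 and 1 reads in *nrpe1* repeats 1 and 2 against 542 and 250 reads in Col-0, or 18.6 Col-0 reads per 100 bp. It lies 697 bp from AT5G34780, overlaps the pseudogene AT5G34790, and is in a window of which 6.66% of bases belong to protein-coding genes. PVTrans2910 on chromosome 4 had 0 and 1 reads in *nrpe1* against 332 and 276 reads in Col-0. It lies between *PPa5*, which encodes a pyrophosphatase, and *NGA4*, a gene for a B3-type transcription factor. PVTrans838 on chromosome 1 had no read in *nrpe1* against 414 and 178 reads in Col-0. PVTrans3925 had no read in *nrpe1* against 257 and 317 reads in Col-0 and lies 404 bp from *BZO2H3*, which encodes a bZIP transcription factor. PVTrans3001, between a Myb-type gene and *CRK40*, a receptor-like kinase gene, had no read in *nrpe1* against 367 and 187 reads in Col-0. Among these 5 the highest count in an *nrpe1* library was 1 read and the lowest in a Col-0 library was 178 reads. PVTrans2498, the third by density with 14.4 Col-0 reads per 100 bp, had no read in *nrpe1* against 333 and 154 in Col-0 and lies 157 bp from AT3G42660.

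At the other end, PVTrans579 had no read in *nrpe1* against 57 and 18 reads in Col-0, or 1.93 Col-0 reads per 100 bp. PVTrans4471 had 1 and 2 reads in *nrpe1* against 72 and 14 reads in Col-0, and PVTrans1917 had 0 and 1 reads in *nrpe1* against 23 and 35 reads in Col-0. In these thin transcripts the lowest Col-0 count was 14 reads and the highest *nrpe1* count was 2. PVTrans4471 starts 77 bp from *ADF4*, which encodes an actin-depolymerizing factor, ends 805 bp from *HTB4*, a histone gene, overlaps AT5G59900 between them, and had no other listed transcript on its strand within 383830 bp. PVTrans1917 lies 1294 bp from *GIK*, which encodes an AT-hook DNA-binding protein.

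The 5 longest members differed widely. PVTrans3960, with 4340 bp, had no read in *nrpe1* against 178 and 129 reads in Col-0, and lies on the same strand as PVTrans3958 in the same gap of 17752 bp between genes. PVTrans430, with 3726 bp, had no read in *nrpe1* against 185 and 29 reads in Col-0. PVTrans162, with 3518 bp, had 0 and 2 reads in *nrpe1* against 263 and 200 reads in Col-0, and PVTrans3939, with 3330 bp, had 0 and 2 against 74 and 117. PVTrans1578, with 3078 bp, had 0 and 1 reads in *nrpe1* against 196 and 107 reads in Col-0. It lies on chromosome 2 between *SQN*, which encodes a cyclophilin that acts in the microRNA pathway, and *OTP51*, which encodes a chloroplast splicing factor. PVTrans162, PVTrans3939 and PVTrans3960 had no listed Pol V transcript on the other strand and no AGO4-bound transcript on their own. Of the 6 members of 3000 bp or more, 3 had a partner and 1 an AGO4-bound transcript.

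The Col-0 repeats are separate samples, and the members' counts differed between them. Over the members, the log2 ratio of repeat 1 to repeat 2 had a median of 0.43 and an SD of 0.88, whereas counting alone would give an SD of 0.26. The ratio exceeded 4-fold in 16 members (5.37%), and 217 (72.8%) had more reads in repeat 1, the library with more reads on the list. In the shorter transcripts the SD was 1.13 and 10.7% exceeded 4-fold. Counting alone would give an SD of 0.39 in the shorter transcripts, which had fewer reads. Among transcripts with a mean of 54.5 to 99.75 Col-0 reads, the middle 50% of the members, the SD was 0.92 in 150 members and 0.86 in 650 shorter transcripts. There 9 members (6%) and 26 shorter transcripts (4%) exceeded 4-fold. At matched reads, then, the long transcripts did not have the narrower spread they had over the whole list. Spearman's rho of the repeats was 0.45 over the 298 members and 0.26 over the 3960 shorter transcripts.

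PVTrans4086, which lies 2610 bp from *RVE2*, a gene for a Myb-like transcription factor, had no read in *nrpe1* against 80 and 6 reads in Col-0 repeats 1 and 2. PVTrans1518 had no *nrpe1* read against 123 and 13 reads in Col-0, and PVTrans932 had none against 109 and 14. In the other direction PVTrans4041 had no *nrpe1* read against 12 and 86 reads in Col-0. PVTrans4141 had none against 20 and 91, and PVTrans3064 none against 44 and 140. A mean over both repeats therefore describes neither library for these 6.

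**Figure D2:**
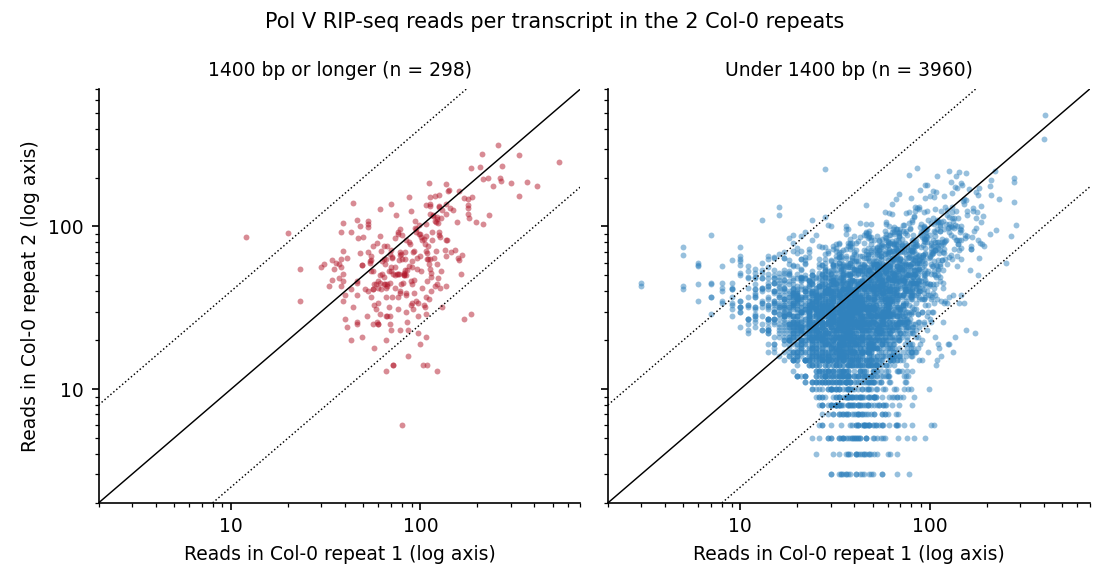
Reads per transcript in Col-0 repeat 1 and repeat 2, on log axes, for the 298 long (left) and 3960 shorter transcripts (right); the solid line marks equal counts and the dotted lines a 4-fold difference. Outside the dotted lines lie 5.37% of the long and 10.7% of the shorter transcripts, mostly those with few reads in a repeat.

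Transcription from both strands was common at the long transcripts. A listed Pol V transcript on the opposite strand overlapped 211 of the 298 members by at least 1 bp (70.8%, 95% Wilson interval 65.4 to 75.7%), against 50.3% of the shorter transcripts and 55.4% of those of 700 to 1400 bp. A long transcript has more bases at which to meet a partner, so measures that do not grow with length were set beside it. The middle base lay inside an opposite-strand transcript in 149 members (50%, 44.4 to 55.6%), against 45.4% of the shorter transcripts and 46.9% of those of 700 to 1400 bp. The share of bases covered on the opposite strand was 43.6% in the members, against 40.3% and 41.0%. Most of the gap in the first share was thus absent from the other measures, and the interval for the midpoint contains the values of the shorter transcripts. These intervals treat transcripts as independent, which neighbours and pairs are not, and no test was made.

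Of the members, 188 met 1 transcript on the other strand and 23 met 2, giving 234 overlaps with 234 different partners. Overlaps were counted from the side of each member, so the 34 pairs in which both transcripts were members enter from both sides. The partners had a median length of 1049 bp and ran from 238 to 7439 bp. They comprised 68 members, 158 listed transcripts under 1400 bp, whatever their *nrpe1* reads, and 8 long ones with over 3 *nrpe1* reads. The partner lay wholly inside the member in 101 overlaps (43.2%), overlapped its 5′ end in 66 (28.2%) and its 3′ end in 50 (21.4%), and enclosed the member in 17 (7.26%). The 12 nested pairs of members enter both the first and the last of these counts. Inside partners were not placed more towards the 5′ end than the 3′ end. Their centres had a median position of 50.1% from the member's 5′ end, with a middle 50% of 36.3 to 66.5%. The centre of an inside partner cannot lie at an end, so its nearness to the middle follows in part from this class. Each transcript was divided into 5 equal segments from 5′ to 3′. Opposite-strand coverage of the members was 39.3% in segment 1, 49.6% in segment 3 and 35.6% in segment 5, against 38.7%, 45.2% and 28.7% in the shorter transcripts. Segment 5 showed the widest gap between the lengths.

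Read density was not equal on the strands. The member had a higher Col-0 density than its partner in 79 of 234 overlaps (33.8%), with a median log2 ratio of member to partner of -0.33, and 176 overlaps (75.2%) were within 2-fold. Each pair of members enters these values in both directions, and so always adds a denser and a thinner member. Partners were mostly shorter, and shorter transcripts had higher densities across the list. Density is taken over the whole length of each transcript, so a longer member can have more reads in all than a denser partner. The 34 pairs in which both transcripts were members shared 188 to 2153 bp, with a median of 1494 bp, and 28 of them were within 2-fold in density. PVTrans3595 and PVTrans3596, which overlap at their 5′ ends over 2153 bp between *NAC080* and *MYB29*, both genes for transcription factors, had no read in *nrpe1*. In Col-0 PVTrans3595 had 125 and 131 reads and PVTrans3596 had 65 and 44. PVTrans1887 lies wholly inside PVTrans1886, which lies 2853 bp from *TCP10*, a leaf development gene. It had no read in *nrpe1* against 144 and 129 reads in Col-0. PVTrans1886 had 0 and 1 reads in *nrpe1* against 186 and 229 reads in Col-0. PVTrans2082 had 3 and 2 reads in *nrpe1* against 160 and 62 in Col-0 and lies inside PVTrans2081, which had no *nrpe1* read against 121 and 71 in Col-0. In the first and second pair the minus-strand transcript had more reads in both Col-0 repeats, and in the third the minus-strand transcript had fewer in repeat 1 and more in repeat 2.

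Members with many reads could also have a partner of lower density. PVTrans3001 encloses PVTrans3002 of the other strand, which had 0 and 2 reads in *nrpe1* against 49 and 26 in Col-0, a log2 density ratio of 1.59. PVTrans2910 encloses PVTrans2911, which had 19 and 0 reads in *nrpe1* against 122 and 65 in Col-0. PVTrans1578 lies inside the longest partner, PVTrans1576 of 7439 bp, which had 15 and 23 reads in *nrpe1* against 496 and 187 in Col-0. PVTrans3958, with the most reads of all members, had no listed partner. At the locus of PVTrans3925 and PVTrans3926, where the windows above show the start of the overlap, 1507 bp were shared. PVTrans3926 had 0 and 1 reads in *nrpe1* against 140 and 166 in Col-0. This locus is one of those with primers listed by the study, which cover 27 transcripts, 4 of them members (PVTrans1468, PVTrans3925, PVTrans3926 and PVTrans3958). PVTrans1468, which overlaps the gene AT2G14080, had no read in *nrpe1* against 76 and 92 in Col-0.

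AGO4-bound transcripts on the same strand overlapped 137 members (46.0%, 40.4 to 51.6%), against 34.0% of the shorter transcripts and 34.0% of those of 700 to 1400 bp. The middle base lay inside one in 71 members (23.8%, 19.3 to 29.0%), against 28.7% of the shorter transcripts and 24.1% of those of 700 to 1400 bp. The share of bases was 20.8% in the members, against 22.1% and 19.6%. AGO4-bound transcripts therefore touched more of the long transcripts. The midpoint share was close to that of the transcripts of 700 to 1400 bp and below that of the shorter ones, and its interval contains both values. The share of bases lay between those of the other sets. With a length limit of 2000 bp the members' midpoint share was 29.2%, and no test was made. The AGO4 list covered at least 50% of the transcript for 48 members (16.1%), against 25.9% of the shorter transcripts and 19.7% of those of 700 to 1400 bp.

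Within the long transcripts the AGO4 signal was mostly a segment. Of 153 AGO4-bound transcripts on members, 108 (70.6%) lay wholly inside, 43 reached beyond an end and 2 covered the whole member. Their median length was 625 bp, with a range of 173 to 2455 bp, against a median of 513 bp in the whole AGO4 list. Those inside a member had a median of 554 bp, 32.4% of the member. AGO4-bound transcripts of such lengths can cover only part of a transcript of 1400 bp or more, so this follows in part from the lengths. In the 45 members of which a single AGO4-bound transcript covered at least 50%, it began a median of 133 bp after the Pol V transcript and ended 155 bp before its end. These distances were 14 and 21 bp in 1015 shorter transcripts, and 40 and 64 bp in the 329 of 700 to 1400 bp. By segment, same-strand AGO4 coverage of the members was 17.1%, 23.3%, 22.9%, 21.2% and 18.2% from 5′ to 3′. The transcripts of 700 to 1400 bp had 16.5%, 22.5%, 23.8%, 21.2% and 14.7%. In both, the ends were covered less than the middle.

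**Figure D3:**
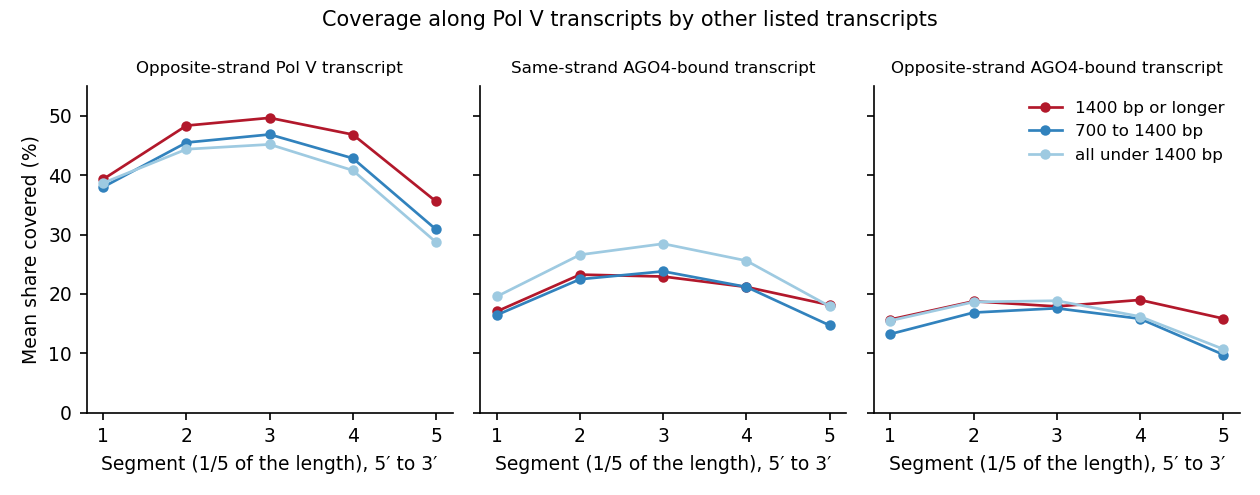
Mean share of each of 5 equal segments of the transcript, from 5′ to 3′, that other listed transcripts cover, for the long transcripts (red), those of 700 to 1400 bp (blue) and all shorter ones (light blue). Opposite-strand Pol V coverage of the long transcripts was 49.6% in segment 3 and 35.6% in segment 5, and same-strand AGO4 coverage stayed between 17.1% and 23.3%.

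The 153 AGO4-bound transcripts had 48 reads in *ago4* against 3625 in Col-0 in all, or 27 against 1888 deduplicated reads. No *ago4* read was found for 135 (88.2%), against 72.7% of the whole AGO4 list. The list was chosen for a high ratio of Col-0 to *ago4*, with 1 library of each, so this is a description. PVTrans838 carries AGO4_Trans695, which had 2 reads in *ago4* against 95 in Col-0 and covers 1584 of its 1814 bp. PVTrans3119, which lies 1924 bp from AT4G08140, carries AGO4_Trans2569 with 10 reads in *ago4* against 95 in Col-0. On PVTrans3958 lie AGO4_Trans3453 with 0 reads in *ago4* against 71 in Col-0, and AGO4_Trans3454, which begins upstream, with 0 against 22. PVTrans838 and PVTrans3958 thus ranked high in both assays, while PVTrans3119 did not: it had 0 and 1 reads in *nrpe1* against 73 and 42 reads in Col-0 in the Pol V RIP-seq. Across the 137 members with an AGO4-bound transcript, Spearman's rho of Pol V and AGO4 reads was 0.60. Both assays used the same tissue, and Pol V reads were higher in longer members.

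A second AGO4-bound transcript on the same strand was found for 16 members (5.37%). This compares with 0.25% of the shorter transcripts and 0.53% of those of 700 to 1400 bp. A longer transcript has more room for a second, so this share grows with length. PVTrans411 holds AGO4_Trans448, 241 bp from its start with 0 reads in *ago4* against 25 in Col-0, and AGO4_Trans449, 981 bp from its start with 0 against 8. PVTrans280, which lies 3333 bp from AT1G32460, has AGO4_Trans383 at its start with 0 reads in *ago4* against 6 in Col-0, and AGO4_Trans382 1304 bp from its start with 0 against 13. PVTrans750 carries AGO4_Trans637 and AGO4_Trans636, with 0 reads in *ago4* against 17 in Col-0 and 1 against 31. Each of these 3 thus has separate listed AGO4-bound segments within a single listed Pol V region, as these lists define transcripts. Whether they lie on the same RNA is not known. Some calls rest on few reads of 1 library: AGO4_Trans383 had 5 deduplicated Col-0 reads and AGO4_Trans449 had 6. Whether sparse reads divided a single segment was not tested. PVTrans750 consists of repeated sequence alone, and its AGO4 reads cannot be told apart from reads of its copy.

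The features went together within the long transcripts. Of the 211 with a partner, 113 (53.6%) had a same-strand AGO4-bound transcript, against 24 of the 87 without a partner (27.6%). In all, 113 members had both, 98 a partner only, 24 AGO4 only and 63 neither. Members with an AGO4-bound transcript had medians of 102 and 76 reads in Col-0 repeats 1 and 2, against 70 and 49 in those without, and 5.02 against 3.59 reads per 100 bp. Members with a partner had 4.38 against 3.80 reads per 100 bp in those without. More reads make it easier for a transcript to be called on either list, and how much of the link this gives was not tested.

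**Figure D4:**
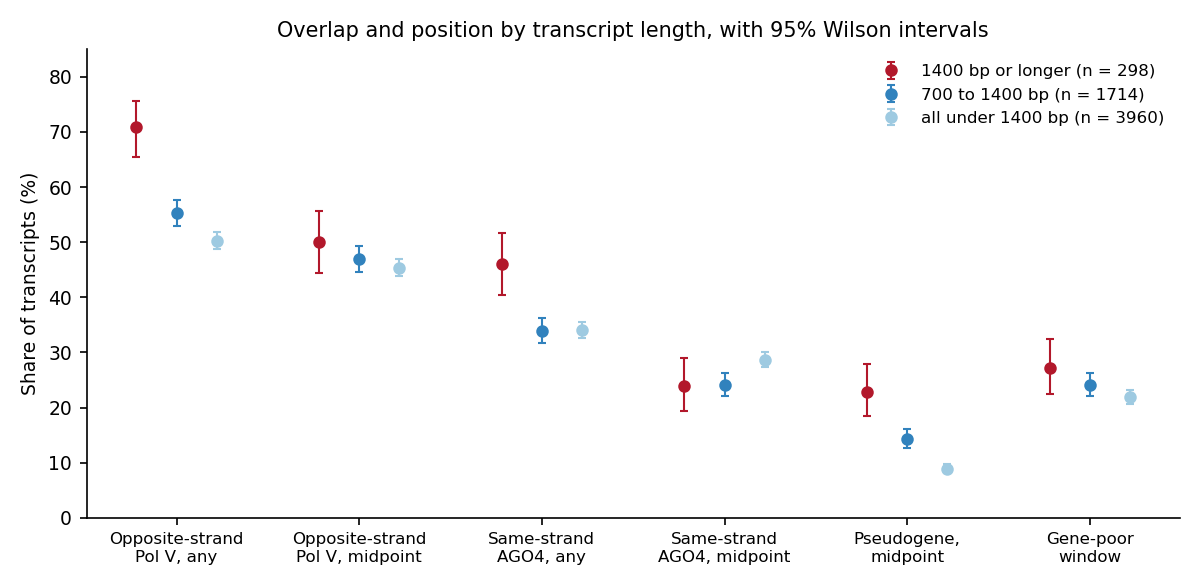
Shares of long transcripts (red), those of 700 to 1400 bp (blue) and all shorter ones (light blue) that overlap other listed transcripts or lie in pseudogenes or gene-poor windows; bars are 95% Wilson intervals over transcripts, which cover sampling of transcripts only. Long transcripts had the higher share of overlaps of any size (70.8% and 46.0%), and shares at the midpoint lay closer together.

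The long transcripts were spread over the genome. There were 67 on chromosome 1, 64 on chromosome 2, 56 on chromosome 3, 41 on chromosome 4 and 70 on chromosome 5, and 147 (49.3%) lay on the plus strand. They occupied 126 of 240 windows of 500 kb. The window with the most, from 6.5 to 7 Mb of chromosome 2, held 10, and the next held 7 each, from 6 to 6.5 Mb of chromosome 2 and 10 to 10.5 Mb of chromosome 5. Windows were called gene-poor where under 30% of bases belonged to protein-coding genes, as in 41 windows (17.1%). Of the members, 81 (27.2%, 22.4 to 32.5%) lay there, against 21.9% of the shorter transcripts and 24.1% of those of 700 to 1400 bp. The share was 16.6% below 400 bp, 25.3% from 1400 to 2000 bp and 33.8% from 2000 bp, and so grew with length. Still, 217 members (72.8%) lay in gene-rich windows, and in these the median density was 4.09 reads per 100 bp, close to the 4.07 of gene-poor windows. A partner was found for 76.5% of members in gene-poor windows against 68.7% in gene-rich ones, and a same-strand AGO4-bound transcript for 54.3% against 42.9%.

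The long transcripts lay in wider gaps between genes. The gap between protein-coding genes that held the middle base had a median of 8072.5 bp for the members, against 4549 bp for the shorter transcripts and 5693 bp for those of 700 to 1400 bp. A long transcript needs a long gap, so part of this follows from length. An end of a member lay within 200 bp of a protein-coding gene in 8.22% of cases, against 10.3% for the shorter transcripts. Of the members, 94 (31.5%) came within 1 kb upstream of a gene, against 39.2% of the shorter transcripts. Although the study took reads outside genes of its annotation, 92 members (30.9%) overlapped a protein-coding gene of the newer annotation used here, and 40 (13.4%) had their middle base in one. These shares were 20.6% and 9.22% in the shorter transcripts.

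Pseudogenes were the annotation met most often. They overlapped 111 members (37.2%, 32.0 to 42.9%), against 14.7% of the shorter transcripts and 24.2% of those of 700 to 1400 bp. At the middle base, which does not grow with length, the shares were 22.8% (18.4 to 27.9%), 8.91% and 14.3%. The intervals of the members and of the transcripts of 700 to 1400 bp (12.7 to 16.0%) did not overlap, in contrast to those of the other midpoint measures. These intervals treat transcripts as independent, and no test was made. Pairs can lie over the same pseudogene, as PVTrans1886 and PVTrans1887 do, and then enter more than once. Across length classes the midpoint share was 3.15% below 400 bp, 17.1% from 1000 to 1400 bp, 21.5% from 1400 to 2000 bp and 27.7% from 2000 bp. Pseudogenes cover 8.78% of the genome. In this annotation they include many remains of transposons, but only 32 of 4843 are described with words for mobile elements, so the kinds were not separated. Annotated long non-coding RNA genes overlapped 38 members (12.8%), against 5.73% of the shorter transcripts, but their middle bases differed little (3.36% against 2.90%).

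Composition differed little. Median GC content was 35.5% in the members, against 34.4% in the shorter transcripts. Per 100 bp there were 4.70 CG, 4.33 CHG and 26.6 CHH sites on both strands in the median member, against 4.98, 4.02 and 25.3 in the shorter transcripts (H stands for A, C or T). The middle 50% of the members, 3.54 to 5.89 CG sites per 100 bp, held the median of the shorter transcripts.

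Repeated sequence bears on the counts, since a read with several matches was placed once. Of the bases of the members, 14.7% began a 25-mer that occurs more than once in the nuclear genome, against 10.6% in the shorter transcripts, 10.9% in those of 700 to 1400 bp and 10.4% in the whole genome. A few members carried much of this: the median was 5.16%, and 21 members (7.05%) had at least 50%, 11 of them at least 90% (3.69%, against 1.19% of the shorter transcripts). Without these 21, the share was 8.72%. Of the 21, 8 had a partner and 4 an AGO4-bound transcript. How the placing of reads in repeats bears on these counts was not tested.

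Several of these members have a nearly identical copy elsewhere. PVTrans162 has a copy of 99.8% identity from 8829850 to 8833367 on chromosome 1. PVTrans750, PVTrans843, PVTrans2860 and PVTrans4379 each have a copy with 100% identity over their whole length on the same chromosome, and PVTrans2859 one of 99.9%. No Pol V transcript was listed at these copies. As reads with several matches were placed once, the reads of these 6 cannot be told apart from reads of the copies. Others are built of tandem units. PVTrans3064, whose units are shown above, and PVTrans3065 on chromosome 4 repeat every 498 bp, and PVTrans3939 on chromosome 5 every 502 bp. PVTrans3064 shared 73.2% of its distinct 25-mers with PVTrans3065 and 33.5% with PVTrans3939. PVTrans3064 had no read in *nrpe1* against 44 and 140 reads in Col-0, PVTrans3065 had 0 and 1 against 87 and 151, and PVTrans3939 had 0 and 2 against 74 and 117. BLAST+ found 965, 757 and 1174 further matches of PVTrans3064, PVTrans3065 and PVTrans3939 in the genome. The units resemble a ribosomal RNA repeat, but the annotation used here names no gene there and the likeness was not tested. Their reads cannot be told apart from reads of other copies. In all 3 Col-0 repeat 2 had more reads than repeat 1, opposite to 217 of the 298 members. None of the 3 had a partner or an AGO4-bound transcript. PVTrans2081 and PVTrans2082, on opposite strands and overlapping *ESM1*, are repetitive over 98.8% and 98.5% of their bases, and their reads on either strand may come from any unit.

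The members were also set beside the 95 transcripts of 1400 bp or more with over 3 reads in an *nrpe1* library. The members had a median length of 1643.5 bp, against 1939 bp for the 95, so shares with any overlap are not at equal length. In the members 30.9% overlapped a protein-coding gene, against 56.8% of the 95. The midpoint lay in one in 13.4% of the members, against 33.7% of the 95. In the members 50% had a partner at the midpoint, against 27.4% (19.4 to 37.1%). The share of bases in same-strand AGO4-bound transcripts was 20.8% in the members against 37.1%. AGO4-bound transcripts without an *ago4* read held the midpoint of 19.1% of the members against 9.47%. The sets were split by their *nrpe1* reads, and whether reads left in *nrpe1* go with reads left in *ago4* was not tested. Nor was a test made of these differences.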

How the data were processed

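Pol V RIP-seq (*nrpe1* and Col-0, 2 biological repeats each) and AGO4 RIP-seq (*ago4* and Col-0, 1 library each) gave 6 of the 9 libraries of the series. The other 3 were not analysed here. The authors mapped paired reads to TAIR10 with SOAPsplice, placing reads with several matches once, and called transcripts from unique reads outside annotated genes, pooled over repeats. How unique reads were defined is not given in the sources used here, and some members consist of repeated sequence alone. Regions were filtered by read number, density, enrichment over the mutant and, in the Pol V list, by NBPSeq's negative binomial test. The deposited read counts per transcript and library are raw. The deposited AGO4 list also holds deduplicated counts. The p-value and q-value columns hold the authors' test and were not used.

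Members were the listed transcripts of at least 1400 bp with at most 3 reads in each *nrpe1* library. The members, the measures and the rule for named transcripts were chosen with earlier results of these data known. Named were the longest, the densest and thinnest, those with the most Pol V or AGO4 reads or AGO4-bound transcripts, the largest differences between Col-0 repeats in each direction, the longest pairs of members, those at primer loci, and those next to the length limit. Positions are as deposited, with length equal to end minus start. They were set on RefSeq's TAIR10.1: all 4502 transcripts fit in its chromosomes, and 34 of 40 primers matched exactly inside the transcript of their number. Overlaps needed 1 bp. Shares have 95% Wilson intervals over transcripts, which cover counting error only. No test was made, since the same libraries chose the members, AGO4 has 1 library per genotype and transcripts are not replicates. The lists held 0 per-library columns that went unused. Computations used Python 3.11.15, numpy 2.4.6, pandas 2.3.3, scipy 1.17.1, matplotlib 3.10.9 and BLAST+ 2.17.0, and interval and repeat counting were tested on simulated data.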

Additional observations from a re-analysis of the deposited data

How the results depend on the processing

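With a length limit of 1200, 1600 or 2000 bp, 494, 170 or 65 transcripts were members in place of 298. With 2000 bp the share with a same-strand AGO4-bound transcript was 52.3%, with the midpoint in one 29.2%, in gene-poor windows 33.8% and of bases in repeated 25-mers 20.03%. Without a limit on *nrpe1* reads, 37.9% of bases were covered on the opposite strand. Counting only overlaps of 50% or more of the member's length gave 46.3% with a partner and 16.1% with AGO4. With only AGO4-bound transcripts that had no *ago4* read, 19.1% had the midpoint in one. The gene-poor share was 14.4% and 39.9% with limits of 20% and 40% of bases in genes. A pseudocount of 5 reads gave an SD of the repeats' log2 ratio of 0.79. With 40-mers 9.45% of bases were repeated, and without the 21 members of mostly repeated sequence, an alternative added after seeing the data, 8.72%. Leaving out either repeat gave a median of 3.45 to 4.92 reads per 100 bp. With no *nrpe1* read allowed there were 234 members, and without that limit 393. For the other measures, values moved by less than their spread under 30 alternatives. These include the omission of either repeat, which could hardly exceed the spread of the density, since that spread comes from the same repeats. Nothing is concluded from that omission. Of 19 differences between long and shorter transcripts under other choices of the shorter ones, 18 kept their direction and 1 turned. At matched reads the SD of the repeats' log2 ratio was higher by 0.055 in the long ones. The other choices contain the shorter transcripts or are part of them, so a kept direction was likely beforehand and nothing is concluded from it. Against those of 700 to 1400 bp, the difference in median reads per 100 bp went from -1.72 to -0.18. The difference in the share with the midpoint in a same-strand AGO4-bound transcript went from -4.86 to -0.27 percentage points. No paired analysis was made because no result comes from a test.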
